A study of Homo sapiens with 8 samples.

Results

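The transcripts of the machinery that copies DNA, 53 genes that act at replication origins and at the replication fork, were examined in RNA-seq counts of 8 libraries of cells labelled A549. The genes were taken by name from a deposited table of 58735 genes, and all 53 were among the 14621 genes with enough reads to be tested. A549 is an established line from human lung adenocarcinoma, a form of non-small cell lung cancer. By their labels, 4 libraries are of cells of genotype EV, which carried an empty lentiviral vector, and 4 of cells of genotype KRT19-OVE, made to overexpress keratin 19 (KRT19 group). The methods give the transgene as a lentiviral, Flag-tagged KRT19 and both lines as stable lines selected with puromycin. Each group may thus stand for a single transduced line, since the libraries are not stated to come from separate cultures. P-values therefore measure the spread between these libraries, which may be technical. The study asked whether KRT19 affects the growth and senescence of lung cancer cells, and copying of the genome is the step these 53 genes carry out.

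Replication starts where the origin recognition complex (ORC) binds DNA. In G1, CDC6 and CDT1 load the ring of MCM2 to MCM7 there, and geminin blocks a further round. At the start of S phase the kinase of CDC7 and DBF4, with MCM10, CDC45 and the GINS complex, turns the loaded ring into the active helicase, called CMG. DNA polymerase alpha with primase then lays down primers, polymerases epsilon and delta extend them on the sliding clamp PCNA, and nucleases and a ligase join the pieces of the lagging strand. Chromatin and its methylation marks are restored behind the fork. Many of these genes are transcribed from G1 into S phase under the control of E2F transcription factors, so their mRNAs are widely used to follow proliferation.

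A sequence feature that the choice of genes did not use was more frequent in the promoters of the members than in promoters overall. RefSeq promoter windows of GRCh38.p14, from 250 bases before to 50 bases after each annotated start, were found for 45 of the 53 members. They were searched on both strands for the E2F motifs TTTCCCGC, TTTCGCGC, TTTGCCGC and TTTGGCGC, with overlapping matches counted separately. Of the 45 genes, 23 (51.1%) held a match, compared with 5.36% of 14896 protein-coding genes with a window, and by single windows 41.4% of 58 held one, compared with 3.31% of 35116. The CCAAT box was found in 57.8% of the members and in 42.3% of the protein-coding genes. The CHR motif (TTTGAA or TTCGAA), found in promoters of genes used late in the cell cycle, was in 4.44% of the members (MCM6 and DBF4) and in 17.4% of the protein-coding genes. The windows below belong to 5 members described further on that held a match, and capitals mark the E2F matches. They show that the match can lie close to the start (ORC3, UHRF1, DNMT1), at separate places (MCM3) or in pairs that overlap on opposite strands (MCM6). Of other members described further on, WDHD1 and RFC4 had a window without a match, and MCM4 and DNA2 had no window. A match is a string of letters in a window, and binding of a factor was not measured. UHRF1 has further annotated starts, whose windows are not shown.
ORC3 (chr6:87589885-87590184, plus strand): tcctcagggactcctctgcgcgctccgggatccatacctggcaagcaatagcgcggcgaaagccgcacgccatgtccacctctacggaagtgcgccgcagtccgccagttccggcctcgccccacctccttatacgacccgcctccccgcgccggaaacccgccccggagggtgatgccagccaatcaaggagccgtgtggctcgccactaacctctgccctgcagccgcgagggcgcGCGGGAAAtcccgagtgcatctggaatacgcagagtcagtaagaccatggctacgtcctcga
MCM3 (chr6:52284693-52284992, minus strand): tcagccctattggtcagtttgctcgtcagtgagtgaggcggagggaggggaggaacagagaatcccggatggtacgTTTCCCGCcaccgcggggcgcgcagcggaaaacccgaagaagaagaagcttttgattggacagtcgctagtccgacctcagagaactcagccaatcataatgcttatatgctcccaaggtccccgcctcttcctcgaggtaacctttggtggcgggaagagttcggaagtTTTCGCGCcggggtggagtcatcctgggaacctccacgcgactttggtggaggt
MCM6 (chr2:135876394-135876693, minus strand): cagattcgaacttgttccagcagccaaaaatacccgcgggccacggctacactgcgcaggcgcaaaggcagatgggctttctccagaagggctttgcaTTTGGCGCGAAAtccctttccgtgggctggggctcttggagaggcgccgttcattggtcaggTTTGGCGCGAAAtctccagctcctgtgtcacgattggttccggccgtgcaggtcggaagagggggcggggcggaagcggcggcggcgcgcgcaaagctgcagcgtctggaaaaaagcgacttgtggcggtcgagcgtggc
UHRF1 (chr19:4909251-4909550, plus strand): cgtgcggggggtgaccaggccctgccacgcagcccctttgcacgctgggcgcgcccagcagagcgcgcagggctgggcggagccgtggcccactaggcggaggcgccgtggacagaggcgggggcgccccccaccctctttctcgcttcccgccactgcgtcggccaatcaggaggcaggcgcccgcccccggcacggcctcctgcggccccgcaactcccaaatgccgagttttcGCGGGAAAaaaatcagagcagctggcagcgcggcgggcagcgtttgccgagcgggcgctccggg
DNMT1 (chr19:10194904-10195203, minus strand): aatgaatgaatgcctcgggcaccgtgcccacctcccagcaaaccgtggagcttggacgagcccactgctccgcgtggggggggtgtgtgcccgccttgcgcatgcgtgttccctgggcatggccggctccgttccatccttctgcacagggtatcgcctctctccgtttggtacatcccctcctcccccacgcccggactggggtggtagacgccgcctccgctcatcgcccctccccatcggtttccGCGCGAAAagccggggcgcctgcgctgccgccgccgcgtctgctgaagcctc

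Library totals ran from 14073065 to 17054364 counts, and each member had between 158 and 14438 counts in a library. Counts of the KRT19 gene, in which the transcript of the transgene and that of the cell's own gene are not told apart, were 1 to 5 in EV and 4353 to 5147 in KRT19 libraries, so no library went against its group. The cell line label was less well matched. The epithelial adhesion genes CDH1 and EPCAM had at most 1 and 3 counts in any library, the aldehyde dehydrogenases ALDH1A1 and ALDH3A1, known to be abundant in A549, at most 3 and 4, and the surfactant genes SFTPA1, SFTPB and SFTPC none. CDKN2A and MTAP, which A549 is known to have lost by deletion, were at 1328 to 1824 and 653 to 870 counts. KRT8, KRT18 and NQO1 were abundant, with 2988 counts or more. The extraction label names retinas. Among retina genes RCVRN was at 0 and CRX, GNAT1, RPE65 and PDE6B at no more than 6 counts in any library, whereas OPN1SW and ARR3 were at 22 to 30 and 5 to 22 counts. The cells are therefore called cells labelled A549. The summed level of the 5 lung markers (NKX2-1, NAPSA and the surfactant genes) was 0.304 to 0.588 CPM in EV and 0.241 to 0.569 CPM in KRT19 libraries (CPM, read counts relative to the scaled size of the library), so these markers were near 0 in both groups. KRT19 replicate 3 stood apart from the other KRT19 libraries. Its count differences from them, as chi-square per degree of freedom, were 7.71 to 13.6, compared with 2.78 to 6.49 for all other pairs within a group, and results are given with and without it where it matters.

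Of the 53 replication genes, 50 (94.3%) had a higher mean in the KRT19 group, compared with 52.2% of all genes tested, and the differences were small. The median log2 fold change was 0.0898, where all genes had a median of 0.00513, and the members ranged from -0.0709 (LIG1) to 0.241 (WDHD1). At an unadjusted p under 0.05, the threshold the study states, 8 members (15.1%) were higher: ORC3, MCM3, MCM4, RFC4, DNA2, WDHD1, UHRF1 and DNMT1. Of all genes tested, 2.85% were higher at that threshold. No member was lower by this rule with edgeR, DESeq2 or limma-voom, where 2.56%, 1.78% and 4.66% of all genes were lower. After Benjamini-Hochberg adjustment over all 14621 genes no member passed in edgeR, DESeq2 or limma-voom, and the lowest adjusted p in edgeR was 0.868, shared by ORC3, WDHD1 and UHRF1. At an unadjusted p under 0.05, DESeq2 called 8 members higher, compared with 2.2% of all genes, and limma-voom 20, compared with 4.49%. After adjustment, 0.00684% of all genes passed in edgeR, which was KRT19 alone, and 5 genes passed in DESeq2 and 8 in limma-voom. For 7 members (13.2%) every KRT19 library lay above every EV library, compared with 1.63% of all genes, and for none did every KRT19 library lie below, compared with 1.81%. These 7 were ORC3, MCM3, MCM4, MCM6, DNA2, WDHD1 and UHRF1, each with an exact permutation p of 0.0286 (two-sided), the smallest that 4 libraries against 4 allow. The members share cell cycle control and the same 8 libraries, so they are not separate observations of the groups. Bulk counts do not separate more cells in S phase from more transcript in each cell.

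**Figure D1:**
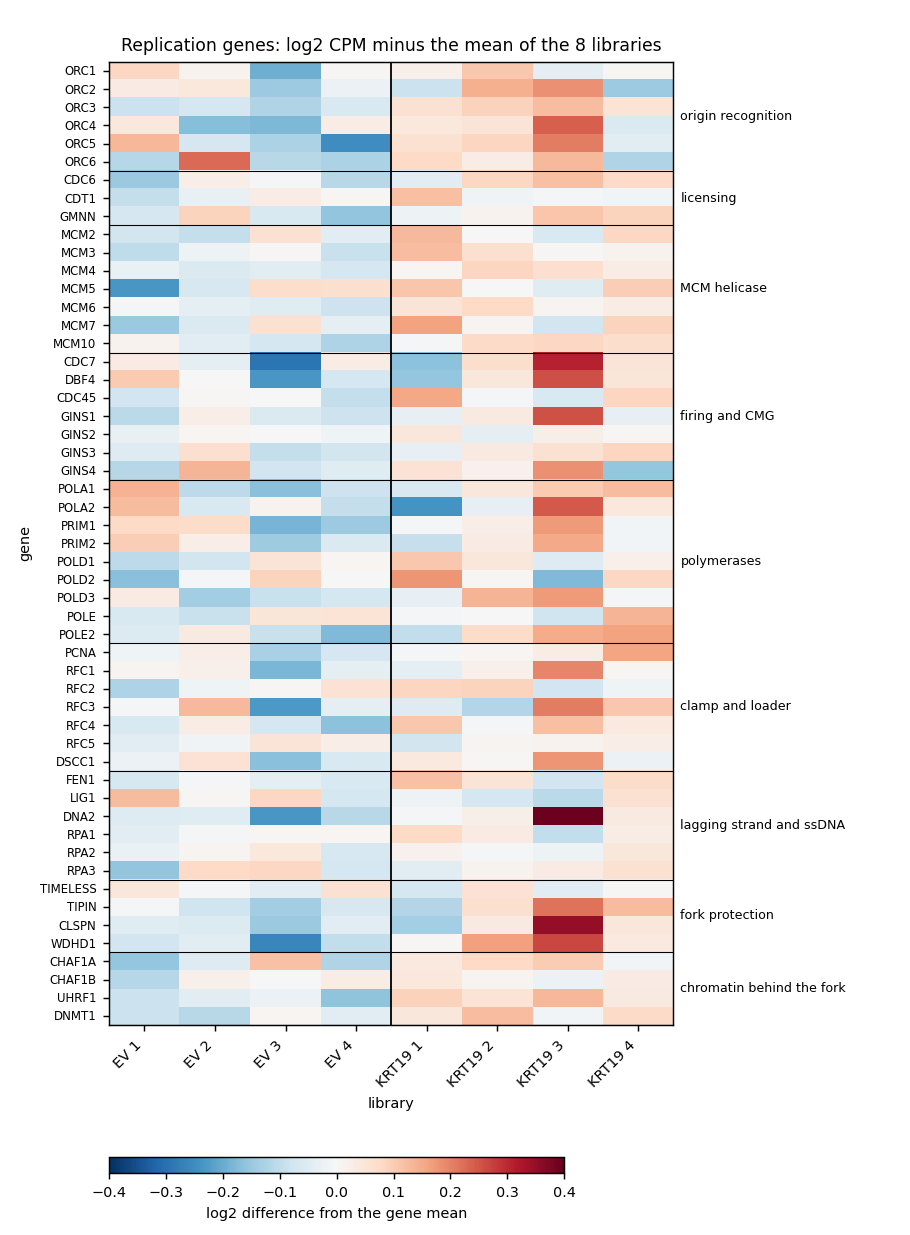
Each row is 1 of the 53 replication genes, grouped by role, and each column is a library. Colour gives log2 CPM minus the mean of the 8 libraries, from blue (lower) to red (higher). The EV columns are mostly blue and the KRT19 columns mostly red, and KRT19 replicate 3 holds the deepest reds, in DNA2 and CLSPN.

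The difference between the groups was uneven over the libraries, as the map of deviations by library shows. On the log2 scale, the median deviation of the 53 members from their own means was -0.0502, -0.0079, -0.0571 and -0.0632 in EV replicates 1 to 4, and 0.00778, 0.0352, 0.102 and 0.0392 in KRT19 replicates 1 to 4. All 4 KRT19 medians lay above all 4 EV medians, but KRT19 replicate 1 and EV replicate 2 were both near 0. In KRT19 replicate 1 the median was below 0 for licensing (-0.0193), firing and CMG (-0.0324), polymerases (-0.0326), clamp and loader (-0.00717) and fork protection (-0.0931). The number of members above their own mean was 15, 22, 19 and 12 in the EV libraries and 28, 43, 36 and 40 in the KRT19 libraries. KRT19 replicate 3 was the highest KRT19 library for 26 members and the highest of all 8 for 24. Without it, 46 members stayed above 0 with a median of 0.0753, compared with 51.2% and a median of 0.00272 for all genes. At an unadjusted p under 0.05 (edgeR) 11 members were then higher, compared with 2.49% of all genes. Of the 8 called with all libraries, 6 remained. RFC4 and DNA2 were lost, and MCM2, MCM6, MCM7, CDC45 and FEN1 were gained. The count was 14 without KRT19 replicate 1, where 4.87% of all genes were higher, and 5 without KRT19 replicate 2, where 2.87% were. ORC3, WDHD1 and UHRF1 kept an unadjusted p under 0.05 whichever library was left out. DNA2 lost it without EV replicate 3 or KRT19 replicate 3, and MCM3, MCM4, RFC4 and DNMT1 each lost it when any 1 of several libraries was left out. The log2 fold changes of 39 members moved by more than 1.5 times, or turned in sign, when some single library was left out, and the 14 that did not were ORC3, CDC6, MCM3, MCM4, MCM6, MCM10, GINS3, POLD3, POLE2, RFC4, FEN1, WDHD1, UHRF1 and DNMT1. No order between the roles is drawn, since their medians also moved with single libraries.

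**Figure D2:**
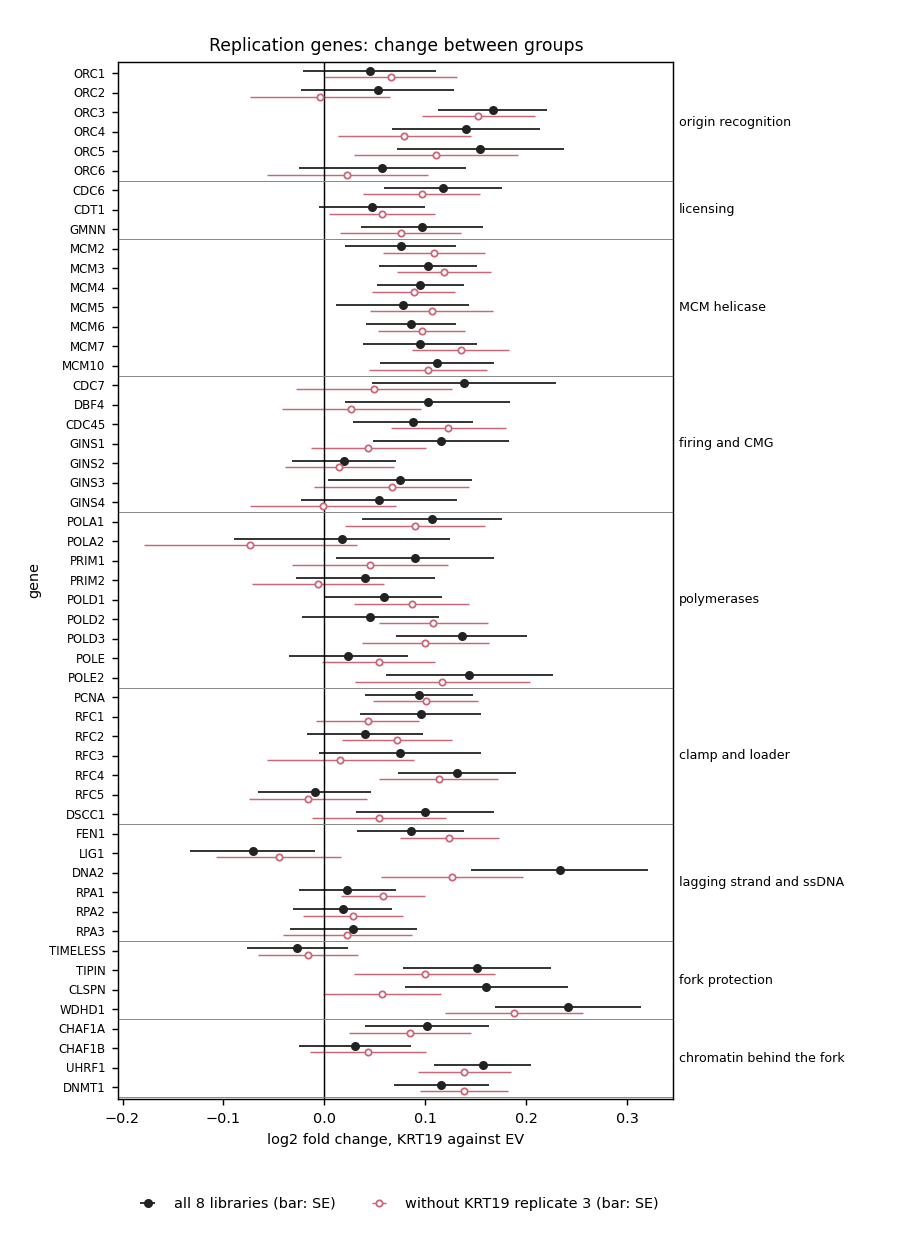
Points are log2 fold changes of KRT19 against EV for each of the 53 genes (x axis), with bars of 1 SE. Filled points use all 8 libraries and open points leave out KRT19 replicate 3. Nearly all filled points lie to the right of 0, with LIG1 (-0.0709), TIMELESS (-0.0268) and RFC5 (-0.00984) to the left, and CLSPN, DNA2, CDC7 and POLA2 move left most when the library is left out.

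All 6 ORC genes had a log2 fold change above 0, with a median of 0.0985 that ranged from 0.0661 to 0.141 when 1 library was left out. ORC3 (chromosome 6, 87590067 to 87667453), a core subunit, was at 42.1, 42.7, 41.1 and 42.8 CPM in EV replicates 1 to 4 and at 46.6, 47.6, 48.7 and 46.5 CPM in KRT19 replicates 1 to 4. All KRT19 libraries lay well above all EV libraries, and the spread within each group was small. ORC3 had a log2 fold change of 0.167 ± 0.0541 (SE), with an unadjusted p of 0.00679 and an adjusted p of 0.868 (edgeR), and it was 0.152 without KRT19 replicate 3. ORC1, the ATPase subunit whose level follows the cell cycle, had the smallest change of the complex. It was at 45.6, 43.5, 37.6 and 43.2 CPM in EV and at 43.7, 46.4, 41.9 and 43.2 CPM in KRT19 libraries. The groups overlapped widely, and the log2 fold change was 0.0446 ± 0.0661 (SE). ORC4 and ORC5 had log2 fold changes of 0.14 and 0.155 with unadjusted p of 0.0734 and 0.078 (edgeR), and ORC2 and ORC6 had 0.0528 and 0.0573. Without EV replicate 2, in which it was highest, ORC6 had 0.151, and without KRT19 replicate 3 it had 0.0227.

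The licensing genes CDC6, CDT1 and geminin (GMNN) had a median log2 fold change of 0.0962 (0.0603 to 0.143 with 1 library left out), and none passed the unadjusted threshold. CDC6, the loader that brings MCM to ORC, was at 68.7, 77.7, 75.9 and 70.6 CPM in EV and at 74, 80.6, 82.9 and 80.4 CPM in KRT19 libraries. KRT19 replicate 1 lay among the EV libraries and the other 3 above all of them. CDC6 had a log2 fold change of 0.117 ± 0.0587 (SE), with an unadjusted p of 0.0617 (edgeR). CDT1, its partner in loading, was at 109.6, 114.8, 119.5 and 117.4 CPM in EV and at 127.4, 116, 116.8 and 116.4 CPM in KRT19 libraries. Apart from KRT19 replicate 1, its libraries lay within the EV range, and the log2 fold change was 0.0471. GMNN, the inhibitor of CDT1, had a log2 fold change of 0.0962. Per kilobase of gene length, CDT1 was at 1.04 to 1.26 times the level of GMNN in all 8 libraries, with overlapping ranges in the 2 groups.

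All 6 subunits of the MCM ring and MCM10 had log2 fold changes between 0.0755 and 0.112. Their median was 0.0949 with all libraries and 0.0778 to 0.109 when 1 was left out. MCM3 (chromosome 6, 52264009 to 52284881) was at 189.6, 200.7, 203.9 and 191.1 CPM in EV and at 221.4, 212.3, 204 and 205.5 CPM in KRT19 libraries. EV replicate 3 and KRT19 replicate 3 were nearly equal, so the groups were only just apart. The log2 fold change of MCM3 was 0.102 ± 0.0484 (SE), with an unadjusted p of 0.0491 and an adjusted p of 0.906 (edgeR). MCM4 was at 373.7, 365.7, 369.4 and 363.3 CPM in EV and at 382.4, 403.7, 398.5 and 387.8 CPM in KRT19 libraries. Its groups were apart and its libraries varied little, with a CV of 1.24% in EV. For MCM4 the log2 fold change was 0.095 ± 0.0427 (SE), at an unadjusted p of 0.0401 (edgeR). MCM6 was at 225.6, 220.5, 218.8 and 213.6 CPM in EV and at 234.3, 239.1, 228 and 230.7 CPM in KRT19 libraries. It did not overlap between groups either, although its unadjusted p of 0.0713 (edgeR) missed the threshold, at a log2 fold change of 0.0856 ± 0.0445 (SE).

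With all libraries MCM2 had the smallest change of this role and MCM10 the largest. MCM2 was at 142.8, 140.4, 156.5 and 145.8 CPM in EV and at 164.3, 150.1, 143.8 and 158.8 CPM in KRT19 libraries. EV replicate 3 was above KRT19 replicates 2 and 3, and the log2 fold change was 0.0755 ± 0.0552 (SE). In MCM2, 23.6% of the exon length overlaps genes on the opposite strand, and how strand was treated in the counting is not given in the sources used here. MCM10, which helps to activate the helicase, was at 45.9, 44.1, 43.3 and 41.8 CPM in EV and at 45.3, 48, 48.1 and 47.7 CPM in KRT19 libraries. KRT19 replicates 2 to 4 were nearly equal and above all EV libraries, whereas replicate 1 fell just below EV replicate 1. For MCM10 the log2 fold change was 0.112 ± 0.0565 (SE), at an unadjusted p of 0.0646 (edgeR). MCM7, the most abundant member, had 0.0949, or 0.0553 without KRT19 replicate 1, and MCM5 had 0.0773, or 0.0174 without EV replicate 1. The 6 ring subunits assemble in equal numbers. Their CPM per kilobase of gene length differed by 8.27 to 9.43 times between the highest and the lowest subunit of a library. These ratios depend on the gene length used, which covers all annotated exons.

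All 7 genes of origin firing and CMG assembly had a log2 fold change above 0, none passed the unadjusted threshold, and the median was 0.0873. Without KRT19 replicate 3 the median was 0.0434, and GINS4 was below 0 (-0.00147). CDC7, the kinase that fires origins, was at 41.1, 39.2, 32.8 and 41.1 CPM in EV and at 35.9, 42.2, 49.8 and 41.7 CPM in KRT19 libraries. The lowest value was EV replicate 3 and the highest KRT19 replicate 3, and the other 6 libraries overlapped. CDC7 had a log2 fold change of 0.138 ± 0.0912 (SE), and it was 0.0492 without KRT19 replicate 3. Its activator DBF4 had 0.102 with all libraries and 0.0266 without that library, and GINS1 had 0.116 and 0.0434. CDC45, the helicase cofactor, moved the other way, with 0.0873 and 0.123 (unadjusted p of 0.0418 in edgeR without the library), but it had 0.0479 without KRT19 replicate 1. GINS2 was at 60.7, 62.4, 62.1 and 61.3 CPM in EV and at 63.9, 60.5, 63.1 and 62.2 CPM in KRT19 libraries. The groups were interleaved, and the log2 fold change was 0.0194 ± 0.0514 (SE). GINS3 and GINS4 had 0.075 and 0.0542, and in GINS4 23.6% of the exon length overlaps genes on the opposite strand. DBF4 shares 9.43% of its sequence with the pseudogene DBF4P1.

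All 9 polymerase and primase subunits had a log2 fold change above 0, with a median of 0.0587, and none passed the unadjusted threshold. Without KRT19 replicate 3 the median was 0.0863, and 7 of the 9 were above 0. POLE2, the second subunit of polymerase epsilon, was at 17.8, 18.9, 17.3 and 16.3 CPM in EV and at 17.2, 19.4, 20.4 and 20.6 CPM in KRT19 libraries. KRT19 replicate 1 lay within the EV range and the other 3 above it. For POLE2 the log2 fold change was 0.144 ± 0.0825 (SE), at an unadjusted p of 0.0998 (edgeR). POLD3, a subunit of polymerase delta, followed with 0.136 and an unadjusted p of 0.0509 (edgeR). POLA2, the regulatory subunit of polymerase alpha, was at 12.6, 11, 11.6 and 10.8 CPM in EV and at 9.72, 11.2, 13.6 and 11.8 CPM in KRT19 libraries. The KRT19 group held both the lowest and the highest library. The log2 fold change of POLA2 was 0.017 ± 0.107 (SE), and without KRT19 replicate 3 it was -0.0737. POLA2 is also uncertain because 35.1% of its exon length overlaps AP000944.2 on the same strand. The catalytic subunits POLA1, POLD1 and POLE had log2 fold changes of 0.106, 0.0587 and 0.0235, the primase subunits PRIM1 and PRIM2 had 0.0898 and 0.0402, and POLD2 had 0.0455. Counts of the primase genes are less certain, since PRIM1 shares 13.7% and PRIM2 9.47% of its sequence with other genes and 21.6% of the exon length of PRIM1 overlaps other genes.

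PCNA, the clamp that tethers polymerases to DNA, had a log2 fold change of 0.0939 ± 0.0534 (SE), and without KRT19 replicate 3 it had 0.1002. The 7 genes of the clamp and its loaders had a median of 0.0939 with all libraries and of 0.0542 without that library. RFC4, a small subunit of the loader, was at 56.9, 60.7, 56.8 and 53.1 CPM in EV and at 64.1, 59.2, 64.6 and 61.1 CPM in KRT19 libraries. KRT19 replicate 2 fell below EV replicate 2, and all other KRT19 libraries were above every EV library. RFC4 had a log2 fold change of 0.131 ± 0.0583 (SE), with an unadjusted p of 0.0379 and an adjusted p of 0.906 (edgeR), and without KRT19 replicate 3 it was 0.113 with an unadjusted p of 0.0673. RFC5, another small subunit, was the 1 gene of this role below 0. It was at 42.1, 42.8, 44.8 and 44.1 CPM in EV and at 41.2, 43.7, 43.7 and 44.1 CPM in KRT19 libraries. The values overlapped almost fully, and the log2 fold change was -0.00984 ± 0.0561 (SE). RFC1, RFC2 and RFC3 had 0.0952, 0.0403 and 0.0751, of which RFC2 had 0.00699 without EV replicate 1 and RFC3 had 0.014 without EV replicate 3 and 0.132 without EV replicate 2, and DSCC1, part of an alternative loader, had 0.0991.

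The 6 genes of the lagging strand and of single-stranded DNA had a median of 0.0256 (0.0116 to 0.0489 with 1 library left out), and of 0.0432 without KRT19 replicate 3. DNA2 (chromosome 10, 68414064 to 68472121), a helicase and nuclease that trims long flaps, was at 25.6, 25.6, 22.5 and 24.5 CPM in EV and at 26.3, 26.9, 34.8 and 27.1 CPM in KRT19 libraries. All KRT19 libraries lay above all EV libraries, but KRT19 replicate 3 was far above the other 3, which were close to the EV level. For DNA2 the log2 fold change was 0.233 ± 0.0877 (SE), at an unadjusted p of 0.0167 and an adjusted p of 0.906 (edgeR). Without KRT19 replicate 3 it was 0.126 with an unadjusted p of 0.0873. LIG1, the ligase that seals Okazaki fragments, had the lowest log2 fold change of all 53 members when all libraries were used. It was at 53.5, 49.2, 51.9 and 46.7 CPM in EV and at 48.3, 46.7, 45.4 and 51.2 CPM in KRT19 libraries. The groups overlapped, and the log2 fold change of LIG1 was -0.0709 ± 0.0619 (SE), at an unadjusted p of 0.268 (edgeR). FEN1, the flap nuclease, had 0.0853, and 0.124 with an unadjusted p of 0.0185 (edgeR) without KRT19 replicate 3. The subunits of RPA, which coats single-stranded DNA, had 0.0225, 0.0179 and 0.0286 for RPA1, RPA2 and RPA3.

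The 4 genes of fork protection had a median log2 fold change of 0.156, which was 0.0781 without KRT19 replicate 3, and TIMELESS was below 0 in both. WDHD1 (chromosome 14, 54938950 to 55027105), which ties polymerase alpha to the helicase, had the largest log2 fold change of the 53 members. It was at 32.9, 33.7, 29 and 32.4 CPM in EV and at 34.8, 38.9, 41.8 and 35.7 CPM in KRT19 libraries. The groups were apart, with EV replicate 3 the lowest and KRT19 replicate 3 the highest library. The log2 fold change of WDHD1 was 0.241 ± 0.0723 (SE), or 18.2% higher, with an unadjusted p of 0.00395 and an adjusted p of 0.868 (edgeR). It was 0.188 with an unadjusted p of 0.011 without KRT19 replicate 3. TIMELESS was at 145, 139.6, 135.9 and 146.3 CPM in EV and at 133.8, 146, 136 and 140.7 CPM in KRT19 libraries. Its groups overlapped and its log2 fold change was -0.0268 ± 0.0501 (SE). Its partner TIPIN had 0.151 with an unadjusted p of 0.0544 (edgeR), although 18.3% of its sequence is shared with RPL9 and its pseudogenes and 21% of its exon length overlaps one of them. CLSPN, the checkpoint adaptor claspin, had 0.16 with all libraries and 0.057 without KRT19 replicate 3.

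In chromatin behind the fork, UHRF1 reads hemimethylated DNA and recruits DNMT1, which copies the methylation mark, and both passed the unadjusted threshold. The median of the 4 genes of this role was 0.108, and 0.111 without KRT19 replicate 3. UHRF1 (chromosome 19, 4903080 to 4962154) was at 205.3, 211.8, 214.5 and 195.2 CPM in EV and at 232.5, 226.5, 239.1 and 223.4 CPM in KRT19 libraries. The groups were apart, with a gap between EV replicate 3 and KRT19 replicate 4. UHRF1 had a log2 fold change of 0.157 ± 0.048 (SE), with an unadjusted p of 0.00459 and an adjusted p of 0.868 (edgeR), and it was 0.138 without KRT19 replicate 3. Of the UHRF1 sequence, 18.3% is shared with AC112777.1, so reads from there cannot be placed with certainty. DNMT1 (chromosome 19, 10133345 to 10231286) was at 359, 352.4, 383.1 and 369.3 CPM in EV and at 392.9, 414.3, 377.6 and 401.3 CPM in KRT19 libraries. KRT19 replicate 3 fell below EV replicate 3 and the other KRT19 libraries lay above every EV library. The log2 fold change of DNMT1 was 0.115 ± 0.047 (SE), with an unadjusted p of 0.025 and an adjusted p of 0.906 (edgeR), and it was 0.138 without KRT19 replicate 3. The histone chaperone subunits CHAF1A and CHAF1B had 0.101 and 0.0301. CHAF1B was at 45.9, 50.4, 49.7 and 50.7 CPM in EV and at 51.1, 50.1, 48.9 and 50.9 CPM in KRT19 libraries, with overlapping groups.

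**Figure D3:**
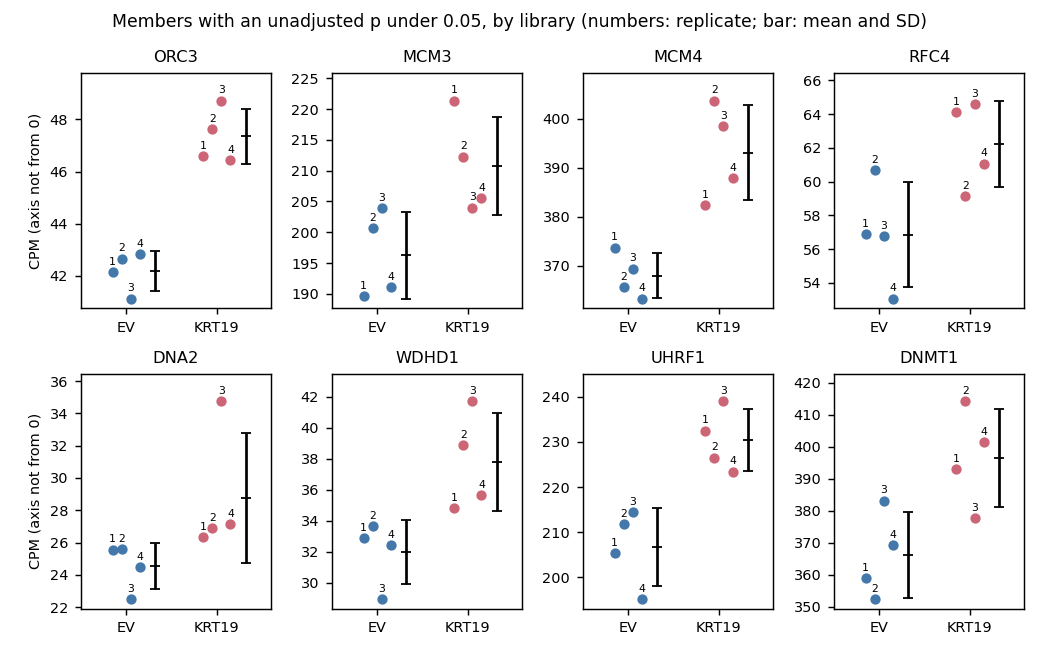
Each panel shows CPM by library for 1 of the 8 members with an unadjusted p under 0.05, with EV in blue, KRT19 in red, the replicate number beside each point and a bar for the mean and SD of 4 libraries. The vertical axes do not start at 0. The groups are apart in ORC3, MCM3, MCM4, DNA2, WDHD1 and UHRF1, and overlap in RFC4 and DNMT1, and DNA2 replicate 3 of KRT19 is at 34.8 CPM where the others are at 26.3 to 27.1.

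Levels were compared between members only per length, as CPM per kilobase of gene length. In EV libraries MCM7 was the highest, at 172.2 ± 10.2, followed by PCNA at 102.6 ± 4.77, POLD2 at 78.2 ± 5.63, RPA2 at 56.4 ± 1.83 and MCM3 at 53.8 ± 1.94 (SD, n = 4 each). The lowest were WDHD1 at 5.01 ± 0.326, GINS3 at 3.96 ± 0.206 and POLA2 at 2.01 ± 0.141 (SD, n = 4 each). By this measure MCM7 was at 85.7 times the level of POLA2. The level of POLA2 is uncertain, because 35.1% of its exon length overlaps AP000944.2 on the same strand. Gene length here covers all annotated exons of a gene, so levels between genes depend on the annotation. Ordered by this level, only 11 of the 52 neighbouring pairs had EV libraries that did not overlap, so most of the order between neighbours lies within the spread. The members varied little between libraries of a group, with a median CV of 5.46% in EV and 5.68% in KRT19.

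**Figure D4:**
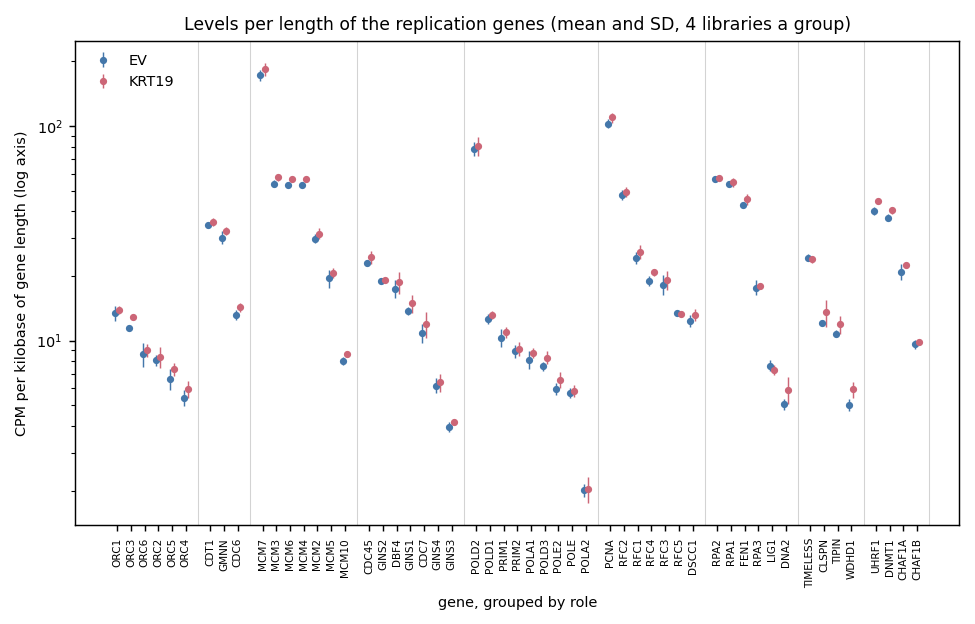
Points are the mean CPM per kilobase of gene length (log axis) of the 53 genes, by role, for EV (blue) and KRT19 (red), with bars of 1 SD over 4 libraries. MCM7 (172.2 in EV) and PCNA (102.6) are the highest and POLA2 (2.01) the lowest, and the 2 groups lie close together at every level.

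The members in which KRT19 replicate 3 was high differed in base composition from those in which it was low. Transcript GC content ran from 37.6% to 65.2% over the members. Of the 34 members with a GC content below 50%, this library was the highest KRT19 library in 23 and the lowest in 4, with a median log2 difference of 0.135 from the other 3. Of the 19 members at 50% or above, it was the highest in 3 and the lowest in 13, with a median of -0.0986. Across the 53 genes, which are not independent replicates, Pearson's r between GC content and the deviation of the library was -0.692 for KRT19 replicate 3, 0.637 for KRT19 replicate 1, 0.722 for EV replicate 3 and -0.548 for EV replicate 1. It was weaker in the remaining libraries, at -0.395 for EV replicate 2, 0.165 for EV replicate 4, 0.0127 for KRT19 replicate 2 and 0.29 for KRT19 replicate 4. The difference between the groups was present in both classes. Members below 50% had a median log2 fold change of 0.0976 with all libraries and 0.0622 without KRT19 replicate 3, and members at 50% or above had 0.0587 and 0.0863. After removal of GC and length trends in each library the medians were 0.0785 and 0.088, and 18 members were higher at an unadjusted p under 0.05 (edgeR). Calls over all genes also increased with this correction, from 2.85% to 4.45% higher. The class limit and this correction were chosen after seeing the data, and the part of base composition in the single results was not tested beyond these values.

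**Figure D5:**
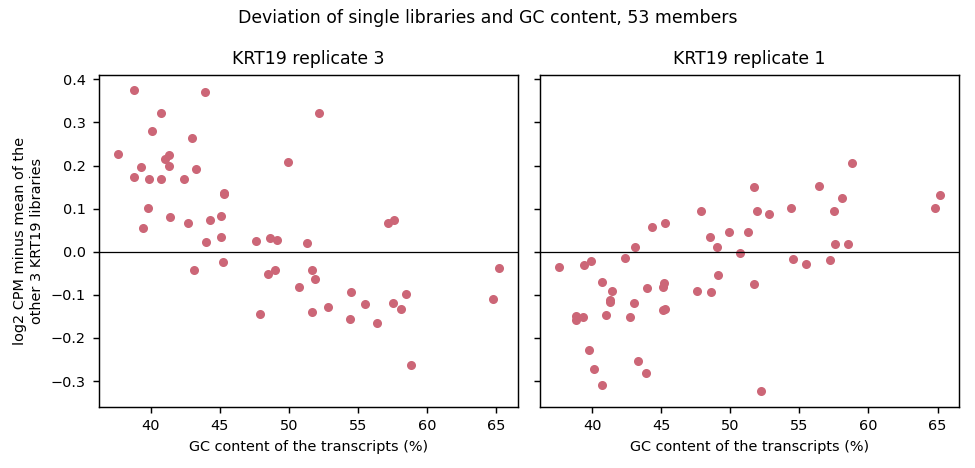
Each point is 1 of the 53 members, with the GC content of its transcripts in percent on the x axis and, on the y axis, log2 CPM of 1 KRT19 library minus the mean of the other 3. Replicate 3 falls with GC content (r = -0.692) and replicate 1 rises with it (r = 0.637).

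Members with an E2F match in a promoter window, described above, had a median log2 fold change of 0.0962 (23 genes), and those with a window but no match had 0.072 (22 genes). Of these, 4 (17.4%) and 2 (9.09%) were higher at the unadjusted threshold, compared with 2.85% of all genes. Without KRT19 replicate 3 the counts were 7 (30.4%) and 3 (13.6%), compared with 2.49% of all genes. The 8 members with no window had a median of 0.0862 with all libraries, and 2 (25%) were higher. Differences between these classes were not tested.

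A list of 32 further replication genes outside the 53 was examined in the same way. Of these, 28 had a log2 fold change above 0, compared with 52.2% of all genes, with a median of 0.0798. Without KRT19 replicate 3, 25 were above 0, compared with 51.2% of all genes, with a median of 0.0542. With all libraries 4 were higher and 0 lower at an unadjusted p under 0.05 in edgeR, compared with 2.85% and 2.56% of all genes. None passed the adjusted threshold. In 1 (3.12%), every KRT19 library lay above every EV library, compared with 1.63% of all genes. TOPBP1, a scaffold for origin firing, was at 103.2, 105.1, 93 and 106.4 CPM in EV and at 113, 111.2, 122.5 and 114.5 CPM in KRT19 libraries. Its groups were apart, and the difference on the log2 scale was 0.179 ± 0.0565 (SE), with an unadjusted p of 0.00573 and an adjusted p of 0.868 (edgeR). RIF1, which sets the timing of replication, had 0.208 ± 0.0799 (SE), and 0.103 with an unadjusted p of 0.0729 (edgeR) without KRT19 replicate 3. The histone chaperones SUPT16H and NASP had 0.104 and 0.122, and also missed the threshold without that library, when 2 of the 32 genes and 2.49% of all genes were called higher. The number called was 9 without KRT19 replicate 1, 1 without EV replicate 3 and 2 without EV replicate 4, where 4.87%, 2.21% and 2.18% of all genes were higher. The sliding clamp loader subunit CHTF8 had -0.0947 and MTBP, which acts in origin firing, had -0.104, neither past the threshold.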

How the data were processed

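Total RNA of 4 EV and 4 KRT19 libraries was isolated with TRIzol and sequenced, and the raw read counts that the authors deposited, in 1 table with a row per gene, were not normalized. The submitters' processing notes name hg38, Bowtie 0.12.2, featureCounts 1.5.0-p3 and DESeq2, without role or order, and the treatment of strand and of reads matching several genes is not given in the sources used here. All 58735 genes had the same start and end in GENCODE 29. Groups and replicate numbers came from the sample titles.

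The analysis used edgeR 4.0.16 in R 4.3.3. Genes were kept by filterByExpr (14621 genes, which held 99.8% or more of every library), scaled by TMM, and compared by glmQLFit and glmQLFTest with the group as the only term, two-sided, with Benjamini-Hochberg adjustment over all genes tested. CPM used TMM-scaled library sizes, log2 CPM a prior count of 2, and levels per length the deposited gene length. Single genes were also compared by exact permutation. Overlap between genes and shared 75-base words were taken from GENCODE 29, with 1 word in 8 sampled. The scripts were first tested on simulated data. Counting precision sets a limit only for genes with few reads, and covers counting error only, as no molecular identifiers were used.

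The members, their roles, the list of 32 further genes and the markers were chosen with earlier results of these data known. Some of the markers are not reported here. Values by library are given for members with an unadjusted p under 0.05, members whose groups were apart, the largest and smallest change of each role, and the label check, and levels per length for the 5 highest and 3 lowest members. All other members are given by role with their log2 fold change. Alternatives were DESeq2 size factors, upper-quartile scaling, the DESeq2 1.42.0 Wald test, limma-voom (limma 3.58.1) with quality weights, a stricter filter (5 CPM or more in 4 or more libraries) and a looser one (1 count or more in all), a block for the replicate number, leaving out each library, and, added after seeing the data, removal of GC and length trends by natural splines with 5 degrees of freedom in each library.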

Additional observations from a re-analysis of the deposited data

Results flagged for a closer look

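Of 108 groups of 4 libraries examined (the 53 members and KRT19 in each group), 7 had a library far from the other 3 by Dixon's ratio of the gap to the whole range above the critical value for 4 samples, and chance gives about 5.4. The values below are on the log2 CPM scale. DNA2 in KRT19 replicate 3 was at 5.13 where the others were at 4.72 to 4.77, a ratio of 0.892. The KRT19 transcript was lowest in the same library, at 8.17 where the others were at 8.27 to 8.28 (0.949). KRT19 replicate 1 was set apart in 3 genes. CDT1 was at 7 in it, compared with 6.86 to 6.87 (0.924), MCM10 at 5.5, compared with 5.58 to 5.59 (0.855), and RFC5 at 5.37, compared with 5.45 to 5.47 (0.845). In the EV group, ORC6 was at 5.48 in replicate 2, compared with 5.13 to 5.14 (0.961), and CLSPN at 5.96 in replicate 3, compared with 6.06 to 6.07 (0.898).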

How the results depend on the processing

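Across 16 alternatives no member was lower at an unadjusted p under 0.05 and none passed the adjusted threshold, the lowest adjusted p being 0.217 (UHRF1). In all 16, 39 members kept a log2 fold change above 0, and ORC3, WDHD1 and UHRF1 kept an unadjusted p under 0.05. The 8 members called higher (2.85% of all genes) became 5 with upper-quartile scaling (2.2%) and 9 with the looser filter (2.94%). MCM3 and MCM4 lost the call in both of these, and RFC4 lost it with upper-quartile scaling. The count was 20 with limma-voom (4.49%) and 18 with GC and length trends removed (4.45%). It was 5 to 14 when 1 library was left out (5 without KRT19 replicate 2, 14 without KRT19 replicate 1), where 2.18% to 4.87% of all genes were higher. The 7 members with groups apart (1.63% of all genes) became 5 with upper-quartile scaling (1.22%), 11 with trends removed (2.79%) and 6 to 12 with 1 library left out. They were 6 without EV replicate 4 or KRT19 replicate 4, where all genes had 2.54% and 2.71%. Without EV replicate 2 or KRT19 replicate 1 they were 12, where all genes had 3.25% and 3.91%. The share of all genes was larger with any library left out, where 3 libraries are compared with 4. With the replicate number as a block, 4 members were called (ORC3, DNA2, WDHD1 and UHRF1) and 2 of the further genes, compared with 1.56% of all genes. Deviations of same-numbered libraries correlated at -0.159 to 0.0567. What the replicate numbers stand for is not stated, and whether same-numbered libraries share a culture or batch was not tested. Of the 32 further genes, 2 were higher with upper-quartile scaling and 1 to 9 with 1 library left out (9 without KRT19 replicate 1, 1 without EV replicate 3), and 1 was lower with trends removed (3.73% of all genes) and 0 to 1 with 1 library left out (1 without EV replicate 3, 2.09%). Upper-quartile scaling moved the median of all genes to -0.00675. The direction turned with limma-voom in ORC2 (-0.0203) and GINS4 (-0.0243) and with trends removed in PRIM2 (-0.0147). With 1 library left out, log2 fold changes spanned 0 in ORC1 (-0.00921 to 0.0799), ORC2 (-0.00427 to 0.107), GINS4 (-0.00147 to 0.111), POLA2 (-0.0737 to 0.0959), PRIM2 (-0.00648 to 0.0799), POLD2 (-0.00826 to 0.108), POLE (-0.0197 to 0.0535), RFC5 (-0.0248 to 0.0125), RPA1 (-0.00148 to 0.0579), RPA2 (-0.000624 to 0.0358), RPA3 (-0.0159 to 0.0621) and CHAF1B (-0.00078 to 0.0452). The cause was not tested. Depth limits the members with few reads, of which POLA2 had the lowest count, 158.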
